A study of Mus musculus with 12 samples.

Results

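The step from 1.5 to 3 µM CHIR99021 was examined in mouse mammary organoids by setting the 3 libraries at 3 µM against the 3 libraries at 1.5 µM, culture by culture. These 6 libraries were chosen by their dose labels from 12 in all, and the other 6 (DMSO and 1 µM) served to show whether a gene had already moved at lower doses. Organoids are small clumps of epithelium isolated from the gland and grown in a gel, here growth-factor reduced Matrigel with a minimal medium. They came from virgin female FVB/N mice aged 8 to 11 weeks, an inbred strain with no engineered allele in the labels. Each of 3 cultures, 1 animal each, was split over 4 treatments: the vehicle DMSO, or CHIR99021 at 1, 1.5 or 3 µM, all for 7 days. Polyadenylated RNA was then sequenced in bulk, so fewer cells of a type and less RNA per cell cannot be told apart.

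CHIR99021 blocks GSK3, a kinase that marks β-catenin for destruction, so that β-catenin builds up and switches on genes together with TCF/LEF factors. Several of those genes, such as Axin2 and Wif1, encode inhibitors that damp the pathway. In the mammary gland WNT signals sustain basal and progenitor cells, and prolonged β-catenin activity is known to turn mammary epithelium towards a skin-like, keratinising state.

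The 6 libraries held from 14564476 to 24485855 counts, and all 12 from 10129264 to 24485855. The epithelial markers were present, with Epcam between 483 and 645 CPM (counts scaled to a common library size) at 1.5 µM and between 511 and 760 at 3 µM. Most markers of fibroblasts, macrophages and adipocytes fell over the same step. Of 12 fibroblast genes 8 were lower and 0 higher (22% of all genes tested were lower), and their summed level was 1847, 3954 and 16477 CPM in cultures 1, 2 and 3 at 1.5 µM against 366, 1510 and 5969 at 3 µM. Of 10 macrophage genes 8 were lower, with sums of 155 to 737 CPM against 43.6 to 135. All 5 adipocyte genes were lower, with sums of 145 to 1273 CPM against 36.2 to 237, and 2 of 8 endothelial genes were lower, with sums of 46.7, 66.4 and 219 CPM in cultures 1, 2 and 3 against 33.6, 71.8 and 107. The endothelial sum thus rose in culture 2, and the count of 2 was 0 when any 3 µM library or the 1.5 µM library of culture 3 was left out. No marker was at 0 in all 3 libraries of a group. The part of these cells in the genes that fell was not tested. Without the culture term 0, 2, 3 and 0 of these fibroblast, macrophage, adipocyte and endothelial calls were made.

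Keratinocyte genes led the rise from 1.5 to 3 µM, and Lgr5, matrix and adipocyte-related genes led the fall. Of 15316 genes tested 3785 were higher (24.7%) and 3364 lower (22%) at an adjusted p under 0.05 in edgeR's quasi-likelihood test with the culture as a block, 46.7% in all. More than 2-fold changes were made up of 839 genes higher (5.48%) and 1581 lower (10.3%), and 7024 of the 7149 called genes moved one way in all 3 cultures. The balance of directions rests on the scaling. Relative to the trimmed mean of M values (TMM) the median gene moved by −0.00 on the log2 scale, while division by the library total alone shifted that median to −0.28 and gave 1751 genes higher and 5978 lower. Changes below are relative to the TMM scale, and every CPM uses it.

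Ranked by the smallest of the 3 cultures' rises, the top genes were mostly cornified-envelope genes of skin. Small proline-rich protein Sprr2i went from 0.318, 0.499 and 1.51 CPM in cultures 1, 2 and 3 at 1.5 µM to 40.1, 48.0 and 140 at 3 µM. Late cornified envelope gene Lce3a went from 1.02, 0.922 and 1.51 to 31.6, 42.2 and 44.6 CPM. Kallikrein Klk14, a protease of the shedding skin surface, went from 13.4, 17.7 and 18 to 386, 476 and 321 CPM. In all 3 genes the lowest 3 µM library lay far above the highest 1.5 µM library, a gap that the ranking itself favours. Their log2 fold changes were 6.61 ± 0.28, 5.12 ± 0.35 and 4.56 ± 0.30 (adjusted p from 2.4e-05 to 3.3e-05, edgeR). Here and below ± gives the SE implied by the edgeR fit to all 12 libraries, with 3 cultures per dose. The same rule named S100a9, a subunit of the antimicrobial protein calprotectin, Lce3b, Uox (urate oxidase) and Sprr2b, Sprr2d, Sprr2e and Sprr2f, with log2 fold changes from 4.14 to 6.07. Sprr2, Lce, S100a and keratin genes have close paralogs, so how reads were divided among members is uncertain.

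Ranked in the same way by the smallest fall among the cultures, the top genes included receptors and matrix genes. Lgr5, the R-spondin receptor that strengthens WNT signals (chromosome 10, 115450311 to 115587780, GRCm38), was at 35.7, 30.5 and 60.5 CPM at 1.5 µM and at 0.470, 0.257 and 0.138 at 3 µM. Its level had already fallen from 232, 175 and 155 CPM in DMSO to 95.1, 77.2 and 112 at 1 µM. The drop between 1.5 and 3 µM was the larger part (log2 fold change −7.16 ± 0.41 against −2.19 for DMSO to 1.5 µM), and the difference between the spans passed its own test (−4.97, adjusted p = 0.0021, edgeR). Clic6, a chloride-channel family member of glandular epithelium, was at 110, 118 and 117 CPM and then at 6.43, 7.25 and 7.66, among the tightest changes (log2 fold change −4.02 ± 0.13, adjusted p = 3.5e-06, edgeR). Its highest 3 µM library lay far below its lowest 1.5 µM library, which the ranking favours as well.

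Matn4, Col14a1 and Prelp, which encode matrix proteins, fell by 6.00, 5.03 and 4.69 on the log2 scale. The carbonic anhydrase Car3, abundant in adipocytes, fell by 5.10, Ppp1r3c, a glycogen-targeting subunit, by 4.53, the GDNF receptor Gfra1 by 5.09 and Brinp1 by 6.90. These genes fell beside the stromal and adipocyte markers given above, and that part was not tested. Dmbt1, a secreted mucosal scavenger protein, was at 8.15, 10.7 and 7.24 CPM at 1.5 µM and at 0.0784, 0 and 0 at 3 µM, but its call did not hold with the 3 µM library of culture 3 left out (adjusted p = 0.0676, edgeR).

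**Figure D1:**
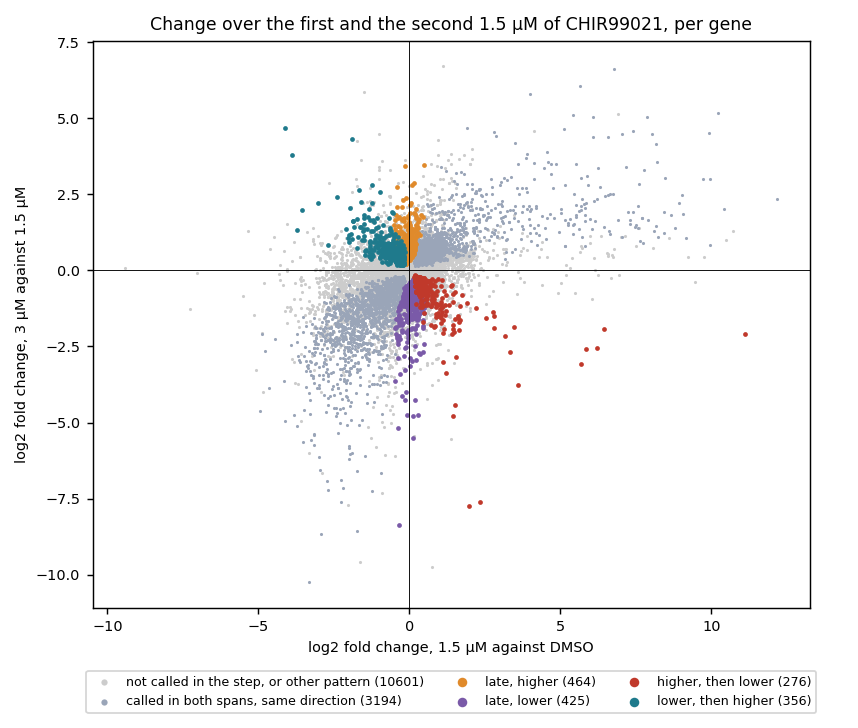
Each point is 1 of 15316 genes, placed by its log2 fold change from DMSO to 1.5 µM (x axis) and from 1.5 to 3 µM (y axis), with colours for the pattern classes. Most genes called in both spans lie in the quadrants of 1 direction (3194 continued), while 276 genes lie at the lower right and 356 at the upper left. Both axes use the 1.5 µM libraries, so position off the diagonal is in part shared error.

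A small set of genes turned back at the highest dose. Called in both spans in opposite directions were 276 genes that were higher at 1.5 µM and then lower (1.8% of genes tested) and 356 that were lower and then higher (2.32%), against 3194 (20.9%) that went on in one direction. The first span itself called 46.7% of genes (22.3% higher, 24.3% lower). Both spans share the 1.5 µM libraries, so an error in those libraries moves the spans in opposite directions. With the 1 µM libraries in place of those at 1.5 µM, a comparison that shares no library with the step, 859 genes were called (5.61%; 2.55% higher, 3.06% lower). By that definition 38 genes were higher and then lower (0.248%) and 76 lower and then higher (0.496%), of which 33 (0.215%) and 67 (0.437%) met both definitions.

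Most genes that turned back were not called against DMSO at 3 µM, a comparison that called 68.9% of all genes (34.1% higher, 34.8% lower). These genes were chosen for opposite changes in the spans, so a small change over both is in part fixed by that choice. The gap to the share of all genes therefore does not show a return to the DMSO level. Of the 276, 200 were not called against DMSO at 3 µM, 24 were higher and 52 lower, and the median log2 change was 0.48 in the first span, −0.58 in the second and −0.06 over both. Of the 356, 252 were not called against DMSO, 62 were higher and 42 lower, with medians of −0.53, 0.55 and 0.03. Changes of more than 2-fold in both spans were seen in 50 and 46 genes. With the library total as the only scaling the counts were 914 and 117, which held all 276 of the first class and 117 of the second. Without the culture block they were 80 and 89.

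Among genes that were higher and then lower were transcription factors and a WNT inhibitor. Wif1, which binds WNT ligands outside the cell (chromosome 10, 121033960 to 121100650), stood at 10.4, 4.87 and 9.32 CPM in DMSO, 33.9, 22.4 and 24.1 at 1 µM, 51.2, 50.5 and 20.0 at 1.5 µM and 17.7, 21.5 and 11.0 at 3 µM. Every culture fell over the step, while the groups overlapped because culture 3 at 1.5 µM lay below culture 2 at 3 µM. The log2 fold change was −1.24 ± 0.34 (adjusted p = 0.016, edgeR), and the call did not hold when the 1.5 µM library of culture 1 (0.0586) or 2 (0.0956) or the 3 µM library of culture 1 (0.0599) was left out. Without culture 1 as a whole the adjusted p was 0.158 (edgeR). Foxi3, a forkhead factor of hair and tooth placodes, stood at 1.20, 0.102 and 0.862 CPM in DMSO, 11.0, 5.12 and 5.11 at 1 µM, 9.68, 5.99 and 4.40 at 1.5 µM and 1.73, 0.642 and 2.21 at 3 µM. The 1 and 1.5 µM libraries all lay above those of DMSO and 3 µM (step log2 fold change −2.15 ± 0.44, adjusted p = 0.0040, edgeR).

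Runx3, a Runt-family factor, had the same shape, from 3.15, 1.02 and 1.35 CPM in DMSO to 20.7, 13.2 and 6.66 at 1.5 µM and 3.37, 5.78 and 3.59 at 3 µM. Its step of −1.51 ± 0.38 was not called with the 1.5 µM library of culture 2 left out or without culture 1 (adjusted p = 0.0534 and 0.0841, edgeR), nor was Foxi3 without culture 1 (0.0724). Krt73, a keratin of the inner root sheath of hair, was at 0.0889, 0.102 and 0.108 CPM in DMSO, at 9.29, 4.57 and 2.72 CPM at 1.5 µM and at 1.25, 0.449 and 0.276 at 3 µM. The 3 µM libraries lay between those of DMSO and 1.5 µM (step −3.06 ± 0.36, adjusted p = 0.00028, edgeR), and the gene stayed in its class under all 21 alternatives run. Nrep, a neuronal regeneration-related gene, went from 398, 359 and 170 CPM to 156, 133 and 55.1 (−1.47 ± 0.13, adjusted p = 7.9e-05, or 0.0522 without the culture block, edgeR).

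The genes Flg2 and Sprr4, both tied to the cornified envelope, went against the general rise of skin genes. Flg2, a filaggrin-like protein, had 0 counts in every DMSO library and 20.2, 22.5 and 5.56 CPM at 1.5 µM. This was at least 80.5-fold higher with 3 counts taken as the floor in each DMSO library. At 3 µM it stood at 6.74, 4.24 and 0.966 CPM. Sprr4 went from 21.3, 21.5 and 17.5 CPM to 7.92, 7.89 and 1.93. Sprr4 did not overlap between groups and Flg2 did, through culture 3. Each fell in all 3 cultures, which the naming rule required (Flg2 −2.09 ± 0.36 and Sprr4 −1.92 ± 0.45, adjusted p = 0.0036 and 0.0086, edgeR). Both calls were lost without the culture block (0.125 and 0.0658). Other genes of this class were Mill1 (an MHC class I-like gene), Syt9 (a synaptotagmin) and Sidt1 (a transmembrane protein linked to RNA uptake), with steps from −1.89 to −1.57. Syt9 missed without the culture block (0.0739) and Sidt1 when the 1.5 µM library of culture 2 was left out (0.0538).

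Genes that were lower and then higher included surface and redox genes. Thbd, thrombomodulin (chromosome 2, 148404466 to 148408188), a receptor that turns thrombin towards anticoagulant activity, stood at 6.84, 11.4 and 11.5 CPM in DMSO, 2.74, 4.11 and 4.87 at 1.5 µM and 13.6, 13.4 and 19.7 at 3 µM. The 1.5 µM libraries were the lowest of each culture and the 3 µM libraries the highest (step 2.01 ± 0.17, adjusted p = 8.4e-05, edgeR). Cbr3, a carbonyl reductase, fell from 34.5, 47.8 and 18.4 CPM to 16.5, 17.8 and 7.07 and returned to 49.9, 51.9 and 26.4 (step 1.67 ± 0.11, adjusted p = 3.3e-05, edgeR). At 3 µM Cbr3 was 0.39 and Thbd 0.68 above DMSO on the log2 scale.

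Further genes of this class were Ly6c1 (a surface antigen), Pdzk1ip1 (a small membrane protein), Nol3 (an inhibitor of apoptosis), Sqrdl (a mitochondrial enzyme of sulfide oxidation), Fam213a (a peroxiredoxin-like protein), Eif4e3 (a cap-binding protein) and Slc7a11 (the cystine importer). Their steps ran from 0.93 in Eif4e3 to 2.22 in Ly6c1. Eif4e3 was the tightest, at 16.8, 18.6 and 17.4 CPM in DMSO, 9.68, 10.1 and 8.29 at 1.5 µM and 18.7, 19.8 and 15.0 at 3 µM. It ended at 0.01 from DMSO on the log2 scale. Slc7a11 was less secure: its step was not called with the 1.5 µM library of culture 3 left out (adjusted p = 0.0577, edgeR), and with library totals it left the class. Fam213a missed without the culture block (0.0606).

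**Figure D2:**
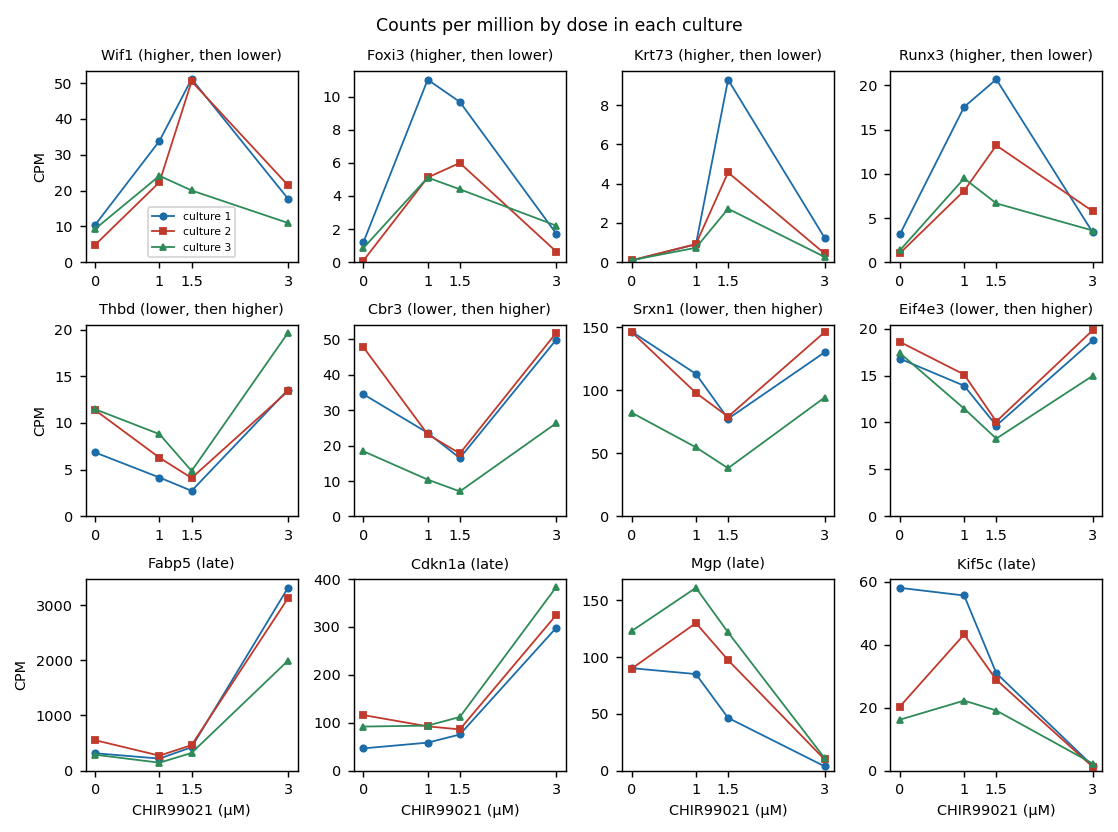
CPM on linear axes from 0 against CHIR99021 dose (DMSO at 0) for 4 genes that were higher then lower (top), 4 that were lower then higher (middle) and 4 that moved late (bottom), with 1 line for each culture. Foxi3 peaks at 1 or 1.5 µM in each culture, Thbd is lowest at 1.5 µM in each, and Fabp5 is at most 551 CPM up to 1.5 µM and lies between 1994 and 3318 at 3 µM.

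Other genes were called over the second span but not over the first. The lack of a call in the first span does not show that a gene held still there. A gene was called late when it changed over the step, changed there by more than over the first span in a test of that difference, and had moved by less than 0.5 on the log2 scale and without a call by 1.5 µM. There were 464 late rises (3.03% of genes tested) and 425 late falls (2.77%), and the difference between spans was called for 2735 genes in all (17.9%; 8.83% in favour of higher levels at 3 µM, 9.03% of lower). With library totals alone 143 and 1441 genes met the rule, among them 120 of the 464 and 361 of the 425. The counts were 108 and 96 without the culture block, 6 and 16 without culture 1, and 1 and 1 without culture 2.

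The late rises named by rule included Fabp5, Gsta4, Cdkn1a and Hunk. Fabp5, the fatty-acid binding protein of epidermis (chromosome 3, 10012548 to 10016607), stood at 314, 551 and 287 CPM in DMSO, 423, 462 and 319 at 1.5 µM and 3318, 3128 and 1994 at 3 µM. Its 3 µM libraries lay 6.24 to 7.85-fold above their own 1.5 µM libraries (2.80 ± 0.16, adjusted p = 2.2e-05, edgeR). Gsta4, a glutathione transferase that clears lipid aldehydes, stood at 84.6, 91.0 and 33.5 CPM in DMSO, 66.8, 85.6 and 37.0 at 1.5 µM and 319, 401 and 228 at 3 µM. Cdkn1a, the cell-cycle inhibitor p21 (chromosome 17, 29090979 to 29100722), went from 75.3, 86.0 and 112 CPM to 298, 325 and 384, a 3.43 to 3.96-fold rise in each culture (1.90 ± 0.20, adjusted p = 0.00019, edgeR). Hunk, a kinase studied in mammary tumours, went from 1.72, 2.73 and 7.07 CPM to 26.9, 33.6 and 54.3, and Fam46b, Sept5 (a septin), Sh2d5 and Slc16a6 (a carboxylate transporter) rose by 1.86 to 2.23.

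The late falls named by rule included genes of matrix, transport and cell contact. Mgp, an inhibitor of matrix calcification, was at 90.2, 89.8 and 123 CPM in DMSO, 46.4, 97.3 and 122 at 1.5 µM and 3.76, 9.82 and 11.0 at 3 µM (−3.41 ± 0.24, adjusted p = 4.0e-05, edgeR). The kinesin heavy chain Kif5c went from 30.9, 28.8 and 19.1 CPM at 1.5 µM to 1.49, 1.16 and 2.21. Groups did not overlap in either gene, which the naming rule favours. Cldn2 (a pore-forming claudin), Tmem150c, Rnf150, St8sia2 (a polysialic acid synthase), Osr1 (a zinc-finger factor) and Ptpru (a receptor phosphatase) fell by 2.89 to 5.51 on the log2 scale. Rnf150 left the late class in 10 of 21 alternatives and Cldn2 in 7. In Cldn2 and Osr1 culture 3 started higher, at 38.1 and 18 CPM in DMSO against at most 4.47 in the other cultures.

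Gene lists were then described by count and median, against 24.7% of all genes higher, 22% lower and a median of −0.00. Genes of glycolysis and the hypoxia response rose together. Of 18 tested 16 were higher and 0 lower over the step, with a median log2 change of 1.39, whereas 2 were higher by 1.5 µM. For 1 of them the second span exceeded the first in the test of that difference, and 0 met the rule for late rises. With the 1.5 µM library of culture 3 left out these counts were 13 and 8. Pgk1, a glycolytic kinase, was at 162, 157 and 478 CPM at 1.5 µM and at 828, 923 and 847 at 3 µM. Carbonic anhydrase Car9, a widely used hypoxia marker, was at 2.1, 2 and 12.1 CPM and then at 13.5, 16.6 and 32.6. Culture 3 was already high at 1.5 µM in both genes, and its rise over the step was the smallest. The log2 fold changes were 1.82 ± 0.34 in Pgk1 and 2.26 ± 0.35 in Car9 (adjusted p = 0.0027 and 0.0011, edgeR). Car9 missed without the culture block (0.0618) and Pgk1 without culture 2 (0.0706).

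The list's median rose from −0.09 and −0.21 relative to DMSO at 1.5 µM to 1.56 and 1.78 at 3 µM in cultures 1 and 2, and from 1.25 to 1.92 in culture 3. All 18 genes were higher at 3 than at 1.5 µM in each culture. Pkm and Pfkp, also of glycolysis, rose by 1.28 and 1.59, and Egln3, an oxygen sensor that hypoxia induces, went from 6.43, 9.91 and 235 to 381, 572 and 950 CPM. The call of Egln3 was lost without the culture block (adjusted p = 0.0795, edgeR), without culture 1 and without culture 2. The list count was 14 with library totals, 10 without the culture block, and 6, 2 and 18 without cultures 1, 2 and 3.

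Hypoxia-inducible factors bind the letters ACGTG, so the promoters of this list were read for them. RefSeq promoter sequences (GRCm38.p6, the 250 bases before the gene start) matched 16 of the 18 genes and 10657 of all tested genes. ACGTG on either strand was present in 7 of the 16 (43.8%) against 21.3% of all promoters, 24.6% of the late rises and 25.1% of the genes that were lower and then higher. The letters planned beforehand were those of TCF/LEF factors, CTTTGAT and CTTTGAA, and ACGTG was added to them. The TCF/LEF letters were present in 0 of 7 matched WNT feedback promoters, against 5.41% of all promoters. Among the genes that turned back or moved late their share was 3.76% to 4.87% by class. A match is a description of the letters and shows no binding. The 3 sequences below were picked among the list's genes with a match, as those with the smallest adjusted p in the step. Pkm and Pfkp, with a smaller adjusted p than Pgk1, had no match. Each match is in capitals (CACGT is ACGTG on the other strand). Car9 lies on chr4:43506776-43507025 (+), Pgk1 on chrX:106186850-106187099 (+) and Ankrd37, an ankyrin-repeat gene known to respond to hypoxia, on chr8:45999851-46000100 (−).
Car9: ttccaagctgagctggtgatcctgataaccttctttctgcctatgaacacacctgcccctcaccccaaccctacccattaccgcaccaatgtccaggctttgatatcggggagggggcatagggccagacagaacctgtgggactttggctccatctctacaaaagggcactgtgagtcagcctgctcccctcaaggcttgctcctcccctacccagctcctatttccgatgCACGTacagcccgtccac
Pgk1: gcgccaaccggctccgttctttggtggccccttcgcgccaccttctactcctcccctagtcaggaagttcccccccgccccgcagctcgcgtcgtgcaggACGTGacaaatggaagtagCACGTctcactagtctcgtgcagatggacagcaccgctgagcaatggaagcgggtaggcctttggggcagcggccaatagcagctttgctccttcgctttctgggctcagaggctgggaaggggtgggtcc
Ankrd37: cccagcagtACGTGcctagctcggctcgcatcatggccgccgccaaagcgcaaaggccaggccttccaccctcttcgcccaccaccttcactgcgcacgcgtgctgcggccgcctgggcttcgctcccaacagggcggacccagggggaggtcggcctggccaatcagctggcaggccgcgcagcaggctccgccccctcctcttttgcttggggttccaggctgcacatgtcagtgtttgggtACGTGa
The match of Car9 begins 18 bases before the gene start, those of Pgk1 begin 150 and 131 bases before it and those of Ankrd37 241 and 6 bases before it. Ankrd37 was at 0.828, 1.38 and 8.11 CPM at 1.5 µM and at 1.80, 10.1 and 25.3 at 3 µM (1.94 ± 0.39, adjusted p = 0.0040, or 0.227 without the culture block, edgeR). Like Car9 and Pgk1 it was highest in culture 3 at both doses, except for Pgk1 at 3 µM.

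Targets of p53, the DNA-damage factor, were more often lower than higher at 1.5 µM against DMSO, and most were higher at 3 than at 1.5 µM. Relative to DMSO the list's median at 3 µM was 0.44, −0.09 and 0.55 in cultures 1, 2 and 3. Of 16 tested 12 were higher over the step and 0 lower (median 0.66), while 3 had been higher and 6 lower by 1.5 µM, and for 11 the second span exceeded the first in the test of that difference (8.83% of all genes). That count was 2 without the culture block, 5, 2 or 7 when the 1.5 µM library of culture 1, 2 or 3 was left out, and 0 without culture 1 or 2. Aen, a nuclease of apoptosis, went from 50.9, 47.0 and 41.1 CPM to 119, 106 and 105, and Bax, a pore-forming apoptosis gene, from 54.2, 57.9 and 49.6 to 81.2, 86.6 and 72.1. Neither overlapped between groups (1.25 ± 0.08 and 0.57 ± 0.06, adjusted p = 2.4e-05 and 0.00012, edgeR). Cdkn1a, described above, and Zmat3, an RNA-binding growth inhibitor, were late rises. The 4 that turned back were Phlda3, Gadd45a, Ccng1 and Btg2. Phlda3, an inhibitor of AKT, was at 66.9, 117 and 55.0 CPM in DMSO, 37.7, 40.8 and 40.6 at 1.5 µM and 100, 107 and 83.9 at 3 µM. With library totals 8 were higher and 2 lower, and Ccng1 and Btg2 left the class. Of 21 alternatives, Ccng1 left its class in 12, Zmat3 in 6, Cdkn1a in 4, Btg2 in 3, Gadd45a in 2 and Phlda3 in 0.

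Some amino-acid stress genes rose late. In the list of 16 stress genes 9 were higher and 1 lower (median 0.58), and 5 met the rule for late rises. That number was 2 when the 1.5 µM library of culture 2 or the 3 µM library of culture 3 was left out, and 3 for the 1.5 µM library of culture 1 or the DMSO library of culture 2 or 3. It was 3 without the culture block and 0 without culture 1 or 2. Atf4, the transcription factor of the integrated stress response, held at 240, 237 and 248 CPM at 1.5 µM, against 245, 230 and 241 in DMSO, and reached 480, 424 and 411 at 3 µM (0.86 ± 0.07, adjusted p = 6.0e-05, edgeR). Asparagine synthetase Asns and the serine-synthesis enzymes Phgdh and Psat1 rose by 1.23, 1.27 and 1.38. The member that fell was Dnajb9, a chaperone partner of the endoplasmic reticulum (−0.33). Psat1 left the late class in 9 of 21 alternatives, library totals among them.

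NRF2 targets, the genes of antioxidant defence, had mostly fallen by 1.5 µM, and few went on falling over the step. Of 12 tested 7 were lower and 1 higher by 1.5 µM, whereas 4 were higher and 2 lower over the step (median 0.38), and 3 turned back, Slc7a11 among them. The step median was 0.05, 0.15 and 0.98 within cultures 1, 2 and 3, and 0.06 over all when the 3 µM library of culture 3 was left out. The lower count was 0 without the culture block, with thinned counts or with only the 6 libraries, and 1 in 8 of the 12 fits without 1 library. Srxn1, sulfiredoxin, was at 147, 146 and 82.3 CPM in DMSO, 77.5, 79.1 and 38.2 at 1.5 µM and 130, 146 and 94.3 at 3 µM. Hmox1, haem oxygenase, was at 291, 368 and 283 CPM, then 142, 155 and 117, then 200, 244 and 216. Each culture showed the dip in both genes (steps 0.98 ± 0.11 and 0.67 ± 0.09, adjusted p = 0.00022 and 0.00054, edgeR), and the call of Srxn1 was lost without the culture block (0.0746). Akr1c13, an aldo-keto reductase, went on falling (−0.64, adjusted p = 0.010, or 0.269 without the block, edgeR).

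Nuclear genes of oxidative phosphorylation showed a shallow dip and return that depends on the scaling. Of 18 tested 12 were higher over the step (median 0.38), 10 had been lower by 1.5 µM, and 7 turned back. With library totals 4 were higher and 2 lower, and 2 turned back. Without the culture block 1 was higher and 0 turned back. When the 1.5 µM library of culture 2 was left out, 4 had been lower by 1.5 µM and 1 turned back, and 4 turned back without the 1.5 µM library of culture 1 or the DMSO library of culture 2. Cyc1, cytochrome c1, was at 131, 175 and 103 CPM in DMSO, 123, 121 and 88.3 at 1.5 µM and 190, 197 and 125 at 3 µM (0.61 ± 0.09, adjusted p = 0.00068, or 0.0806 without the block, edgeR). Of 11 respiratory genes encoded in the mitochondrial genome 0 were called over the step (median −0.00). The count was 0 as well at an unadjusted p under 0.05 and by DESeq2, and 4 were lower with library totals.

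**Figure D3:**
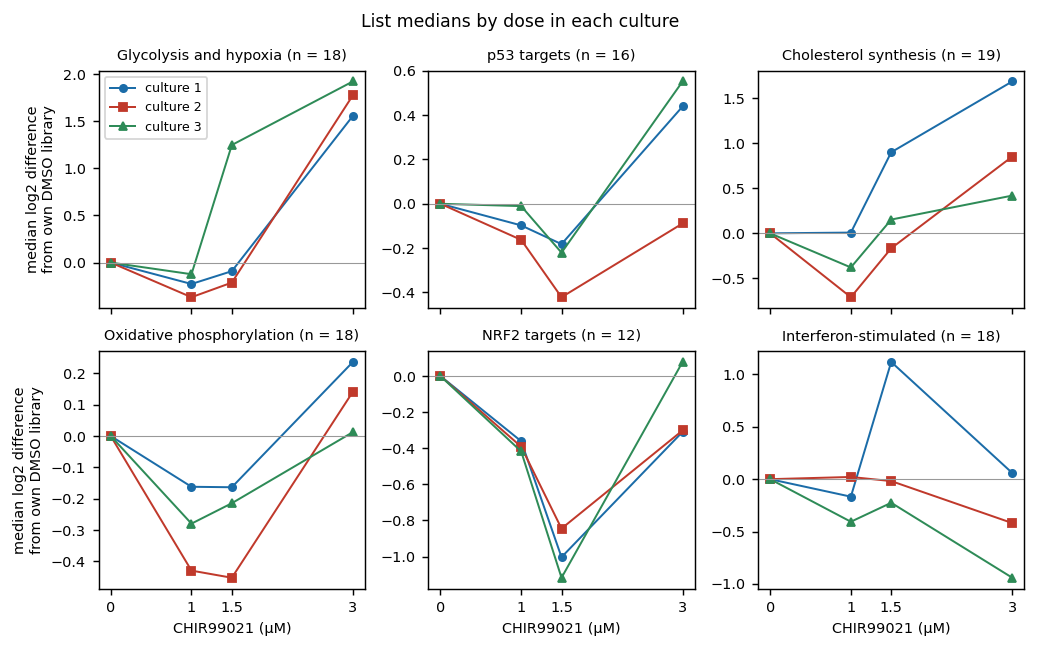
Median log2(CPM + 0.5) of 6 gene lists relative to the DMSO library of the same culture, against dose, with 1 line for each culture and a panel scale for each list. Glycolysis and hypoxia genes rise between 1.5 and 3 µM in cultures 1 and 2 and already by 1.5 µM in culture 3, while NRF2 targets are lowest at 1.5 µM in each culture.

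Most cholesterol-synthesis genes rose, and the desaturases Fads1 and Fads2 fell. Of 19 sterol genes 15 were higher and 0 lower (median 0.73). Msmo1, a sterol oxidase, went from 78.9, 78.7 and 70.3 CPM to 198, 204 and 143 (1.25 ± 0.17, adjusted p = 0.00065, edgeR), and Hmgcs1, Sc5d and Fdft1, enzymes of the same route, rose by 0.87, 0.58 and 0.88. Hmgcs1 missed without the culture block (0.0587) and Fdft1 with the 1.5 µM library of culture 2 left out (0.0518). The list count rested on single libraries, falling to 3 or 8 when the 1.5 µM library of culture 2 or 3 was left out and to 6 or 5 when the 3 µM library of culture 1 or 2 was, and it was 6 with library totals. In culture 3 the list's median rose by 0.29, against 0.81 and 1.12 in cultures 1 and 2. Of 13 fatty-acid genes 1 was higher (the desaturase Scd2, a call lost in 13 alternatives) and 3 lower, or 0 and 6 with library totals and 0 and 3 without the culture block. Fads1 and Fads2 went from 274, 236 and 339 CPM to 105, 128 and 122, and from 145, 133 and 143 to 63.4, 71.9 and 50.5, without overlap. Srebf1, the factor that drives fatty-acid synthesis, fell by 0.73.

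Many cell-division genes rose, and the cultures differed. Of 18 replication genes 12 were higher and 0 lower (median 0.63), and of 16 mitosis genes 5 were higher and 0 lower (median 0.64). The median change of the mitosis list was 0.71 in culture 1, 1.18 in culture 2 and −0.30 in culture 3, where 2 of the 16 were higher at 3 than at 1.5 µM. Cyclin B1 (Ccnb1) was at 32.5, 34.3 and 29.0 CPM and then at 73.8, 95.5 and 24.6, below its 1.5 µM level in culture 3 alone, and its call was lost in 14 alternatives. Rrm2, which makes deoxynucleotides, went from 54.9, 45.8 and 40.5 to 192, 199 and 61.3. With the 3 µM library of culture 3 left out all 16 mitosis genes were called higher. Leaving out the 3 µM library of culture 1 or 2, or the 1.5 µM library of culture 2, gave 0. The count was 1 when the 1.5 µM library of culture 1 was left out, with library totals or without the culture block. The replication count was 6 when the 1.5 µM library of culture 2 or the 3 µM library of culture 1 or 2 was left out, and 6 with library totals.

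Interferon-stimulated genes fell over the step. Of 18 tested 10 were lower and 0 higher (median −0.73). Ifih1 and Ddx58, sensors of viral RNA, fell by 0.70 and 0.71, from 36.5, 30.0 and 43.7 CPM to 23.2, 18.7 and 25.6 and from 81.4, 78.1 and 66.8 to 49.8, 47.2 and 41.8. Neither gene overlapped between groups. Zbp1, a nucleic-acid sensor, and Ifit2 fell by 1.46 and 1.49. The antiviral GTPases Mx1 and Mx2 had been higher by 1.5 µM, most of all in culture 1 (6.24 CPM of Mx1 against 1.6 in DMSO), but their turn was lost in 14 and 15 of 21 alternatives. The list count was 6 when the 1.5 µM library of culture 1 was left out, and 5 or 6 when the 3 µM library of culture 2 or 3 was. Macrophage markers fell over the same step, with the sums given above, and their part was not tested.

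Among WNT feedback genes the step raised some and lowered others. Of 13 tested 4 were higher (Axin2, Tcf7, Tnfrsf19 and Znrf3) and 3 lower (Lgr5, Wif1 and Bambi), with a median of −0.02, against 24.7% and 22% of all genes. The lower count was 1 when the 1.5 µM library of culture 1 or 2 or the 3 µM library of culture 1 was left out. Axin2, the scaffold of β-catenin destruction, went from 49.3, 18.6 and 18 CPM to 132, 67.2 and 52.4, a 2.68 to 3.61-fold rise in each culture, with groups that did not overlap (1.6 ± 0.20, adjusted p = 0.00040, or 0.0561 without the culture block, edgeR). Its first span had been larger on the log2 scale (3.31), and the difference between spans passed (−1.71, adjusted p = 0.017, edgeR). Tcf7, a TCF/LEF factor, and Tnfrsf19, a TNF receptor-family target, rose by 1.33 and 2.87, and Znrf3, a ligase that removes WNT receptors, by 0.57. Bambi, a TGF-β pseudoreceptor, changed by −0.29 (adjusted p = 0.034, edgeR), and this call was lost in 13 alternatives. Rnf43 (−0.12), Nkd1 (0.68), Nkd2 (−0.17), Notum (0.45), Apcdd1 (−0.47) and Lef1 (−0.02) did not pass. Nkd1 was called higher when the 3 µM library of culture 3 was left out (1.31, adjusted p = 0.0023, edgeR). The genes Nkd2, Notum and Lef1 changed sign under alternatives that left out libraries, and Rnf43 was lower with library totals (−0.40, adjusted p = 0.0212, edgeR).

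The skin programme rose in most of its genes. Of 18 spinous-layer genes 14 were higher and 0 lower (median 1.64), and of 22 granular or cornified-layer genes 16 were higher and 1 lower, Flg2 (median 1.55), or 11 and 0 without the culture block. Transglutaminase Tgm1, which cross-links the envelope, went from 30.0, 26.9 and 18.2 CPM to 147, 144 and 130, and Krt16, a keratin of activated epidermis, from 621, 648 and 539 to 7553, 7962 and 3848. Neither overlapped between groups (Tgm1 2.52 ± 0.15, Krt16 3.35 ± 0.29, adjusted p = 2.3e-05 and 9.2e-05, edgeR). Of 23 hair and nail genes 10 could be tested, of which 7 were higher and 2 lower (2 higher without culture 2). Trichohyalin (Tchh) went from 5.98, 4.73 and 7.36 CPM to 53.1, 49.6 and 64.6, and Foxn1, the factor of hair keratinisation, rose by 2.13. Krt84, a hair and nail keratin, reached 35.7 and 42.0 CPM in cultures 1 and 2 but 1.17 in culture 3. The 2 that fell, Krt73 and Krt71 (−4.47), are both keratins of the inner root sheath.

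Mammary lineage genes moved in both directions within each list. Of 13 basal or myoepithelial genes 5 were higher and 5 lower. Their median of −1.55 was −0.04 when the 1.5 µM library of culture 3 was left out and −0.74 when its 3 µM library was, and the medians within cultures 1, 2 and 3 were −0.05, −0.22 and −0.95. Krt14, Krt5 and Trp63, which mark the basal layer of skin as well, rose by 2.43, 2 and 1.71, and Tagln, a smooth-muscle gene, fell from 16.9, 19.8 and 26.4 CPM to 4.94, 3.72 and 5.24 (−2.18 ± 0.14, adjusted p = 2.4e-05, edgeR). Of 13 hormone-sensing genes 4 were higher and 4 lower (median 0.60), or 3 and 1 without the culture block. The median was −0.11 when the 3 µM library of culture 3 was left out. Areg, an EGF-receptor ligand, went from 3.18, 4.88 and 4.87 to 33.7, 44.6 and 44.9 CPM, and Ly6a and Prom1, surface proteins of luminal progenitor and hormone-sensing cells, rose by 2.01 and 1.68. The receptors of prolactin (Prlr), oestrogen (Esr1) and progesterone (Pgr) fell by 1.02, 1.1 and 1.44, the calls of Esr1 and Pgr being lost without the culture block (0.0867 and 0.198). Of 16 alveolar genes 3 were higher and 7 lower (median −0.43), with 1 higher and 4 lower when either library of culture 2 was left out, and 0 higher and 4 lower without the culture block. Btn1a1, a protein of milk-fat globules, went from 49.6, 48.1 and 89.0 CPM to 3.21, 2.82 and 4.07. The milk proteins Csn2 (3.46) and Csn3 (−2.10) moved apart, and both calls were lost without the culture block (adjusted p = 0.239 and 0.287, edgeR). Culture 3 held most of their counts.

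**Figure D4:**
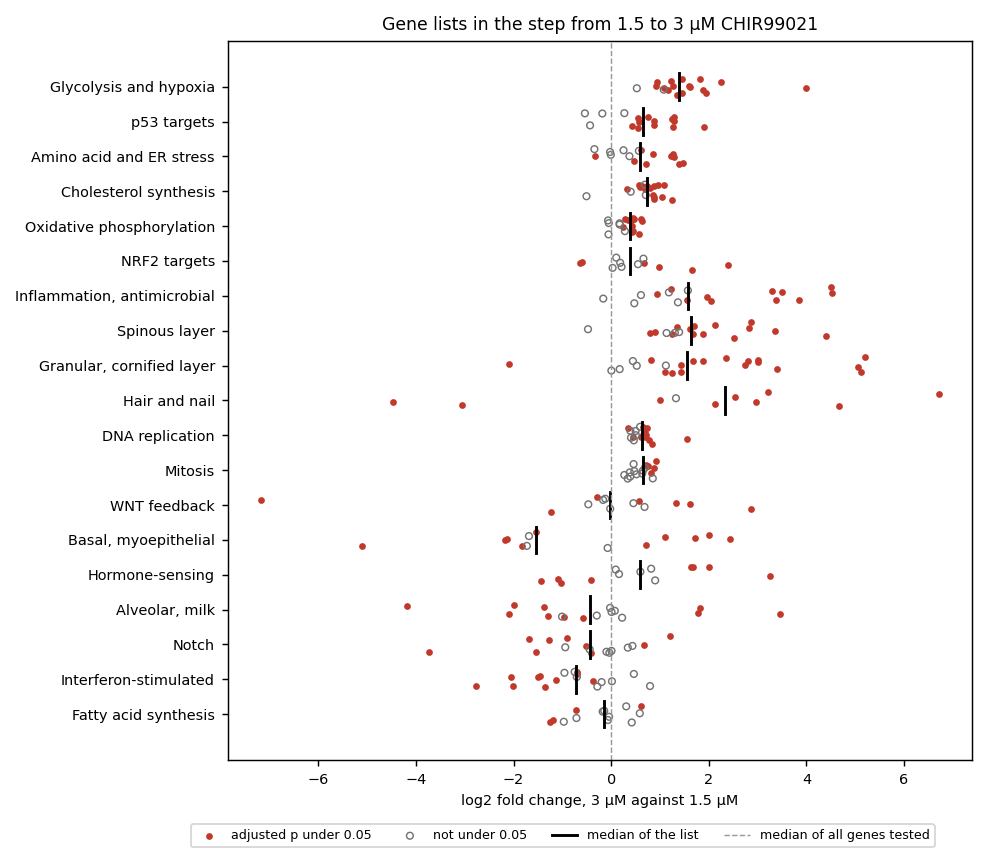
Log2 fold change from 1.5 to 3 µM for every tested gene of 19 lists, 1 point a gene, filled where the adjusted p was under 0.05 (edgeR), with a bar at the list's median and a dashed line at the median of all genes. Glycolysis, p53 and cholesterol genes called in the step lie to the right of 0, interferon genes called lie to the left, and the basal, hormone-sensing and alveolar lists spread to both sides.

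Counting by strand is not stated for these data, so reads of genes that overlap a gene on the opposite strand cannot be assigned with certainty. Of the genes named by rule or added and given in this text, this holds for Ankrd37, Axin2, Car9, Cdh2, Cdkn1a, Col14a1, Csn3, Dmbt1, Fam46b, Fdft1, Fn1, Gadd45a, Gfra1, Hmgcs1, Il1a, Klk14, Krt5, Krt7, Lef1, Lgr5, Matn4, Nkd2, Nol3, Notum, Nrarp, Osr1, Pfkp, Prelp, Prom1, Psat1, Rnf150, Rnf43, Runx3, Sidt1, Slc16a6, Slc7a11, Srebf1, St8sia2, Tagln, Tcf7, Tchh, Tgm1, Tmem150c, Tnfrsf19, Trp63, Uox and Zeb2.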

How the data were processed

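The deposited files hold raw counts per gene for 12 libraries, made by the authors. TopHat2 2.1, Bowtie 1.1.0, HTSeq, DESeq2 and GRCm38/mm10 are named in the submitters' processing notes, without order or role, and whether counting used strand is not given in the sources used here. Of 25210 genes, 15316 passed edgeR's filterByExpr. edgeR 4.0.16 (limma 3.58.1, R 4.3.3) was fitted to all 12 libraries with TMM scaling, dose group and culture as terms and robust quasi-likelihood, with Benjamini-Hochberg adjustment over all genes tested. The culture pairing comes from the study's design, in which every culture received each treatment. Deviations of same-numbered libraries correlated at 0.194 to 0.858 over 18 pairs. CPM uses TMM-scaled totals. Alternatives were DESeq2 1.42.0, its size factors, library totals alone, no filter, no culture block, only the 6 libraries, thinned counts, and leaving out libraries or cultures. The scripts were tested on simulated data.

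Genes were named by the smallest of the 3 cultures' changes in log2(CPM + 0.5), with a mean of at least 50 counts and 1 direction, the top 10 or 8 per class, plus up to 4 per list by adjusted p and the WNT feedback list. Members and lists were chosen with earlier results of these data known. Phlda3, Gadd45a, Ccng1, Btg2, Ankrd37, Egln3, Krt71, Mx1, Mx2, Esr1, Pgr and Dnajb9, and the mitochondrial genome list, were chosen after their values or those of other lists were seen. Gene coordinates are from GENCODE M21 (GRCm38). Some results are not reported here.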

Additional observations from a re-analysis of the deposited data

How the results depend on the processing

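The 3 cultures and the scaling set most limits. The calls of the step (7149 genes) numbered 4544 without the replicate block and 3069 to 8306 with libraries or cultures left out, lowest without culture 2. The higher genes (3785) were 1751 with library totals alone and 1636 to 4468 with libraries left out, and the lower genes (3364) were 5978, 1943 without the block, and 1433 to 3838. From DMSO to 1.5 µM (7147) the count was 4177 without the block and 3231 to 8573. From DMSO to 1 µM (859) it was 1707 with DESeq2, 37 without the block and 0 to 2243, among them 2243 when the 3 µM library of culture 3 was left out, 442 or 475 for the 1.5 µM library of culture 1 or 2, 88, 75 or 116 for a 1 µM library, and 525 or 86 for the DMSO library of culture 1 or 2. The 3 µM against DMSO count (10559) stayed within 1.5 times. The test between spans (2735) called 4638 genes with library totals, 567 without the block and 19 to 4248, among them 822, 462 and 1678 without each 1.5 µM library, 4248 without the 3 µM library of culture 3 and 1804 without the DMSO library of culture 2.

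Genes higher then lower (276) numbered 914 with library totals, 80 without the replicate block, 38 by the 1 µM libraries, 50 past 2-fold in both spans, and 27 to 399 with libraries left out, with 151 or 97 for the 1.5 µM library of culture 1 or 2 and 135 or 172 for the DMSO library of culture 2 or 3. Genes lower then higher (356) numbered 117, 89, 76, 46 and 67 to 549 in that order, and 220 without the filter, with 199 or 126 for the 1.5 µM library of culture 1 or 2 and 549 for the 3 µM library of culture 3. Late rises (464) numbered 143 with library totals, 298 without the filter, 108 without the block and 1 to 762, with 117, 68 and 275 without each 1.5 µM library and 762 without the 3 µM library of culture 3. Late falls (425) numbered 1441, 96 without the block and 1 to 654, with 123, 64 and 230 without each 1.5 µM library and 654 without that same 3 µM library. The cause was not tested.

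Over the fits with libraries or cultures left out, 3 WNT genes changed sign in the step. Nkd2 ranged from −0.66 to 0.27, with 0.27 and 0.20 when culture 1 lost its 3 µM library or was left out. Notum ranged from −0.069 to 1.37, with −0.069 without culture 3 and −0.00039 when culture 3 lost its 3 µM library. Lef1 ranged from −0.38 to 0.56 and was at 0.014 with DESeq2, with 0.56 when culture 3 lost its 1.5 µM library, 0.017 and 0.26 when culture 1 or 2 lost its 3 µM library, and 0.066 and 0.062 without culture 2 or 3. Of 169 genes followed, 42 lost their call without the replicate block and 127 kept their side of the threshold. Without culture 1, 27 lost their call, and without culture 2, 44 did. Among those 44 were Pgk1, Ly6c1, Mill1, Krt84 and Ifit2 (adjusted p from 0.0706 to 0.101, edgeR).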

Other observations

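Notch pathway genes and keratins of the luminal layer moved in both directions over the step. Of 16 Notch genes 2 were higher and 7 lower (median −0.43, beside 24.7% higher and 22% lower of all genes). Hey2, a transcriptional repressor that Notch induces, was at 6.11, 6.49 and 7.18 CPM at 1.5 µM and at 0.470, 0.513 and 0.483 at 3 µM. Its groups were tight and did not overlap (−3.73 ± 0.17, adjusted p = 9.4e-06, edgeR). Nrarp, a Notch feedback inhibitor, went the other way, from 39.7, 26.5 and 45.1 to 94.3, 66.8 and 94.5 CPM (1.21 ± 0.19, adjusted p = 0.0013, edgeR). The lower count was 4 and 2 without cultures 1 and 2. Of 4 luminal keratins Krt19 fell from 753, 763 and 736 CPM to 235, 201 and 237, and Krt7 rose from 105, 112 and 66.3 to 194, 313 and 404.

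Antimicrobial and alarm genes of barrier epithelium rose. Of 17 tested 11 were higher and 0 lower (median 1.57), or 7 without the culture block. Il1a, an alarm cytokine, went from 5.73, 9.45 and 6.95 CPM to 23.4, 27.3 and 35.6, and β-defensin Defb4 from 0.828, 0.807 and 0.232 to 6.98, 11.2 and 1.86. Il1a did not overlap between groups, and every culture rose in both genes (1.97 ± 0.18 and 3.38 ± 0.32, adjusted p = 9.9e-05 and 0.00012, edgeR). Of 10 genes of epithelial-mesenchymal transition 1 was higher and 3 lower (median −0.44), beside 24.7% higher and 22% lower of all genes. The lower count was 1 when the 1.5 µM library of culture 3 or the 3 µM library of culture 1 or 2 was left out. It was 5 without the 3 µM library of culture 3. Cdh2, Zeb2 and Fn1 fell by 1.06, 1.18 and 0.97, calls lost without the culture block (adjusted p = 0.131, 0.214 and 0.523, edgeR), and Snai2, a zinc-finger factor of basal cells, was higher, from 14.5, 16.4 and 22.9 CPM to 51.0, 56.2 and 41.5.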
